A study of Homo sapiens with 12 samples.

Results

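Hypoxia response and glycolysis genes were followed in HCT116 cells that had lost AGO2 or had it put back. Of 36 genes listed by symbol, 35 were among the 15074 Ensembl genes of the authors' deposited tables. CA9, a carbonic anhydrase gene that HIF switches on, was not in the tables. The 35 measured genes were 2 alpha subunits of hypoxia-inducible factor (HIF), 2 HIF prolyl hydroxylases, 10 other HIF target genes, 3 regulators of glycolytic flux, 2 glucose transporters and 16 glycolytic enzymes.

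HIF is a transcription factor made of an alpha subunit, which oxygen controls, and the constant subunit ARNT. When oxygen is plentiful, prolyl hydroxylases mark the alpha subunit for destruction, so most of its control lies in protein stability rather than in mRNA. When oxygen is short the subunit persists, binds hypoxia response elements in promoters and enhancers, and raises genes for glucose uptake, glycolysis, lactate production, blood vessel growth and removal of mitochondria. Colorectal carcinoma cells also run glycolysis at a high rate when oxygen is present.

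HCT116 is a human colorectal carcinoma line with epithelial features. AGO2 is an Argonaute protein: loaded with a microRNA, it finds matching mRNAs and lowers their translation and stability. The 4 groups had 3 libraries each: HCT116 cells of the parental genotype, AGO2 knockout cells, knockout cells reconstituted with FH-tagged wild-type AGO2 (FH-WT), and knockout cells reconstituted with FH-tagged 5xA AGO2 (FH-5xA), a mutant that the series studies for Argonaute phosphorylation. The last 3 groups all lack the cell's own AGO2 as labelled. All cells came from wells seeded with 500000 cells under standard culture and were collected after 48 h, and no group was labelled as exposed to low oxygen. Each group is a single line, so differences between lines that do not come from AGO2 cannot be told apart from its effect. The sources used here do not name the promoter that drives the tagged AGO2.

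The authors' deposited tables hold 5 group comparisons over 6 libraries each and no value per library, so depth per library is unknown. Each table gives a log2 fold change and a false discovery rate over all genes, and a gene is said to be called, to have risen or to have fallen where that rate was under 0.05. Errors after ± are standard errors derived from the deposited scores, and they ran from 0.0646 to 0.328 (log2) over the members. Their median was 0.0907 for the members, while the medians for all genes were 0.117 to 0.122 over the tables. Members were thus measured more closely than most genes. The shares of members and of all genes called were not matched for this, and its part in them was not tested. Replicates are wells of 1 line, so p-values do not cover the spread between independently made lines. Levels given as CPM, read counts scaled to library size, are group values solved from the authors' deposited mean expression and fold changes. Mitochondrial RNA made up 0.870% of the fitted expression in parental cells, 1.29% in the knockout, 3.91% with FH-WT and 1.99% with FH-5xA, and its part in the results was not tested beyond the recalculation without it. AGO2 mRNA was lower in the knockout than in parental cells by -0.35 ± 0.07, and above the knockout by 0.75 ± 0.07 with FH-WT and 0.73 ± 0.07 with FH-5xA, in the authors' deposited tables. All 6 epithelial markers (EPCAM, KRT8, KRT18, KRT19, CDH1, CLDN4) were in the tables, with summed group levels from 2058 to 2878 CPM. None of 3 blood and none of 3 endothelial markers was in the tables, and of 4 fibroblast markers COL1A1 alone was present, at 1.83 to 4.99 CPM. In knockout against parental cells EPCAM was at -0.58 ± 0.07, KRT18 at -0.46 ± 0.08 and CDH1 at -0.97 ± 0.08, all called, in the authors' deposited table. KRT8 at -0.36 ± 0.16, KRT19 at 0.12 ± 0.14 and CLDN4 at 0.22 ± 0.15 were not called in the authors' deposited table. The part of these differences in the results here was not tested.

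The HIF binding core is ACGTG, with GCGTG as its other spelling, and both were searched on both strands of RefSeq promoter windows (GRCh38.p14, 250 bases before to 50 bases after a gene's start). An ACGTG preceded by C also reads as ACGTG on the opposite strand and counts as 2 cores. A window was at hand for 31 of the 35 genes, all but BNIP3L, NDRG1, VEGFA and SLC2A3. A core was present in 26 of the 31 windows (83.9%), against 6221 of 9630 windows of measured protein-coding genes (64.6%). ACGTG was in 15 windows (48.4%, against 26.7% of all windows) and GCGTG in 17 (54.8%, against 52.6%). The numbers of cores were highest in LDHA and BNIP3 with 6 each and ALDOC with 5, while EGLN3, PFKM, PFKP, TPI1 and PGAM1 had no core in this window. A match is a run of letters and does not show that HIF binds there. The 6 windows printed here belong to HIF1A and EPAS1, which moved in opposite directions between the AGO2 forms, to BNIP3, KDM3A and ALDOC, which were higher with FH-5xA, and to LDHA, which has 6 cores and was called in no comparison. Cores are in capitals, and a core on the opposite strand appears as its reverse complement.
HIF1A, chr14:61695263-61695562, plus strand: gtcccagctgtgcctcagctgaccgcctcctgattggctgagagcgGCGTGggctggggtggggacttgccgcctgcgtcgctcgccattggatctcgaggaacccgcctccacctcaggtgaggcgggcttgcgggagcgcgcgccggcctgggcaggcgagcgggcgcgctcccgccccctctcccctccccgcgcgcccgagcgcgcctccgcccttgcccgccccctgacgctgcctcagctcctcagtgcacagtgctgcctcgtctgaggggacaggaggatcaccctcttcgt
EPAS1, chr2:46297157-46297456, plus strand: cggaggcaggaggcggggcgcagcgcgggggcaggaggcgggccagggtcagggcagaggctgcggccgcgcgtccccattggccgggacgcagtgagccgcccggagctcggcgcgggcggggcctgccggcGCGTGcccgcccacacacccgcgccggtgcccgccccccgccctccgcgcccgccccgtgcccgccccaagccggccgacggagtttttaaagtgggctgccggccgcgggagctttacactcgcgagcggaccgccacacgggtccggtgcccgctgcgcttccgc
BNIP3, chr10:131981874-131982173, minus strand: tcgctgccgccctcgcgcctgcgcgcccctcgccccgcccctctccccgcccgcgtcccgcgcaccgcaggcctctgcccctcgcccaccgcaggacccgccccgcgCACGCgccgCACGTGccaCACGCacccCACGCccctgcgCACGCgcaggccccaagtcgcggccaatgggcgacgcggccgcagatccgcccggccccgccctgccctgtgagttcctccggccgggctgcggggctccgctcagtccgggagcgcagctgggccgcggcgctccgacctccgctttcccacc
KDM3A, chr2:86441211-86441510, plus strand: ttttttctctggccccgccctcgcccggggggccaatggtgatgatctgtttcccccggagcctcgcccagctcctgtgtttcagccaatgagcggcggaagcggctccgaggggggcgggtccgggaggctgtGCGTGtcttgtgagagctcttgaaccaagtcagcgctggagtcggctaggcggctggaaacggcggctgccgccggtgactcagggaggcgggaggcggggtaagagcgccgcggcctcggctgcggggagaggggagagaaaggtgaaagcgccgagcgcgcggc
ALDOC, chr17:28576846-28577145, minus strand: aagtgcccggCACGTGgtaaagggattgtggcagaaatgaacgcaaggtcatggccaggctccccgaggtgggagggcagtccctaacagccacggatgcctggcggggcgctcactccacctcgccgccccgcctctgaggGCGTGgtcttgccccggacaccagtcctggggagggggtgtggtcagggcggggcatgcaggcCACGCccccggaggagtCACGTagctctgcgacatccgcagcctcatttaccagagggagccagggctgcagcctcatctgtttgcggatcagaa
LDHA, chr11:18394313-18394612, plus strand: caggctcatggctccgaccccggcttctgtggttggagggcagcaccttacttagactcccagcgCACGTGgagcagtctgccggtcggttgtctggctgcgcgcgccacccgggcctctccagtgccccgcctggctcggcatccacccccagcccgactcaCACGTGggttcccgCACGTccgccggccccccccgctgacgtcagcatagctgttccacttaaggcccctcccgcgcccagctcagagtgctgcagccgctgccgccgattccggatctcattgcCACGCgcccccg

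The BNIP3 cores lie within one short stretch upstream of the start, those of ALDOC and LDHA are spread over the window, and HIF1A, EPAS1 and KDM3A each hold a single GCGTG. Of the members with a window, 12 rose in knockout against parental cells and 19 did not. The other core spelling, ACGTG, was present in 6 of the 12 (50%) and in 9 of the 19 (47.4%). A core of either spelling was present in 11 of the 12 (91.7%) and in 15 of the 19 (78.9%). These differences were not tested. Some windows lie away from the start of the principal transcript in GENCODE 29, by 2757 bases for EGLN1, 1658 for PGAM1 and 1337 for GAPDH. Next came PFKP at 450 bases, ADM at 393, ALDOC at 369, ANKRD37 at 357 and SLC2A1 at 308. Other starts of these genes were not searched.

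**Figure D1:**
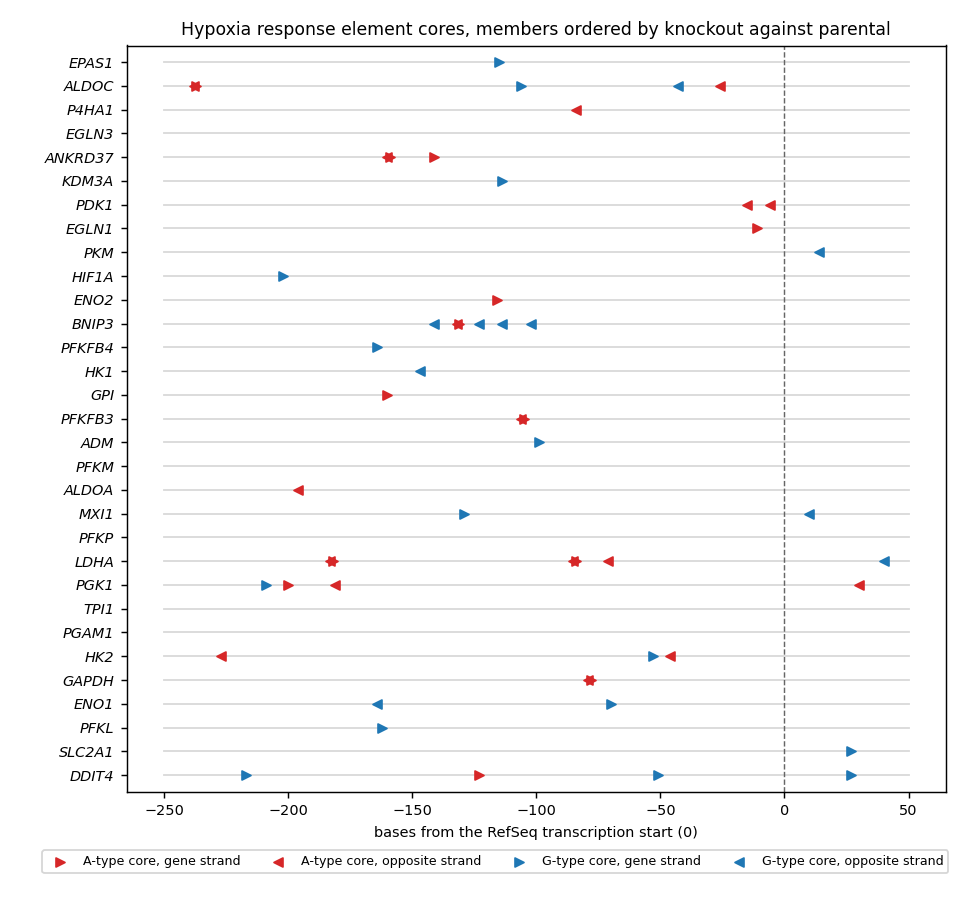
Positions of HIF binding cores in the promoter windows of the 31 members that have one, ordered from the highest to the lowest log2 fold change in knockout against parental cells; the x axis is the distance in bases from the RefSeq transcription start (0). Red marks are ACGTG and blue marks GCGTG, a triangle to the right lies on the gene's strand and one to the left on the opposite strand, and 2 overlaid red triangles are an ACGTG read on both strands. Cores are present in rows from the top to the bottom of the plot, and 5 rows are empty.

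The knockout line differed from parental cells in 19 of the 35 members, and 14 of the 19 rose. Against parental cells, 14 members were higher and 5 lower in the knockout in the authors' deposited table, which is 54.3% of the members, against a background of 44.4% of all genes. The median log2 fold change was 0.15 for the members and -0.01 for all genes. By direction, 23.2% of all genes were called higher and 21.2% lower in the authors' deposited table. Rises were found among HIF subunits (2 of 2), prolyl hydroxylases (2 of 2), other HIF targets (5 of 10) and regulators of flux (1 of 3). Of the 10 other HIF targets 2 fell, and both glucose transporters fell. Of the 16 glycolytic enzymes, 4 rose, 1 fell and 11 were not called.

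Both lines with AGO2 put back had more members lower than higher against the knockout line. FH-WT against knockout had 9 members lower and 0 higher in the authors' deposited table, 25.7% of the members against a background of 10.1% (5.85% lower, 4.21% higher). The members called in FH-5xA against knockout were 4 lower and 2 higher in the authors' deposited table, 17.1% against a background of 11.3% (6.24% lower, 5.04% higher). These tables share the knockout libraries with each other and with knockout against parental. An error in those libraries would thus enter each of them, as a rise in one and a fall in the others or the reverse. Against parental cells, FH-WT had 7 members higher and 5 lower in the authors' deposited table (34.3%, background 34.4%, of which 18.3% higher and 16.1% lower). For FH-5xA against parental 11 were higher and 6 lower in the authors' deposited table (48.6%, background 43.8%, of which 22.9% higher and 20.9% lower). With a stricter reference for the scores, an F distribution with 1 and 8 degrees of freedom, BNIP3L was the only member still called in either comparison with the knockout, and the members called in FH-WT against parental fell from 12 to 7. Across the 5 deposited tables of the authors 23 members were called at least once (65.7%), against 9238 of all genes (61.3%).

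**Figure D2:**
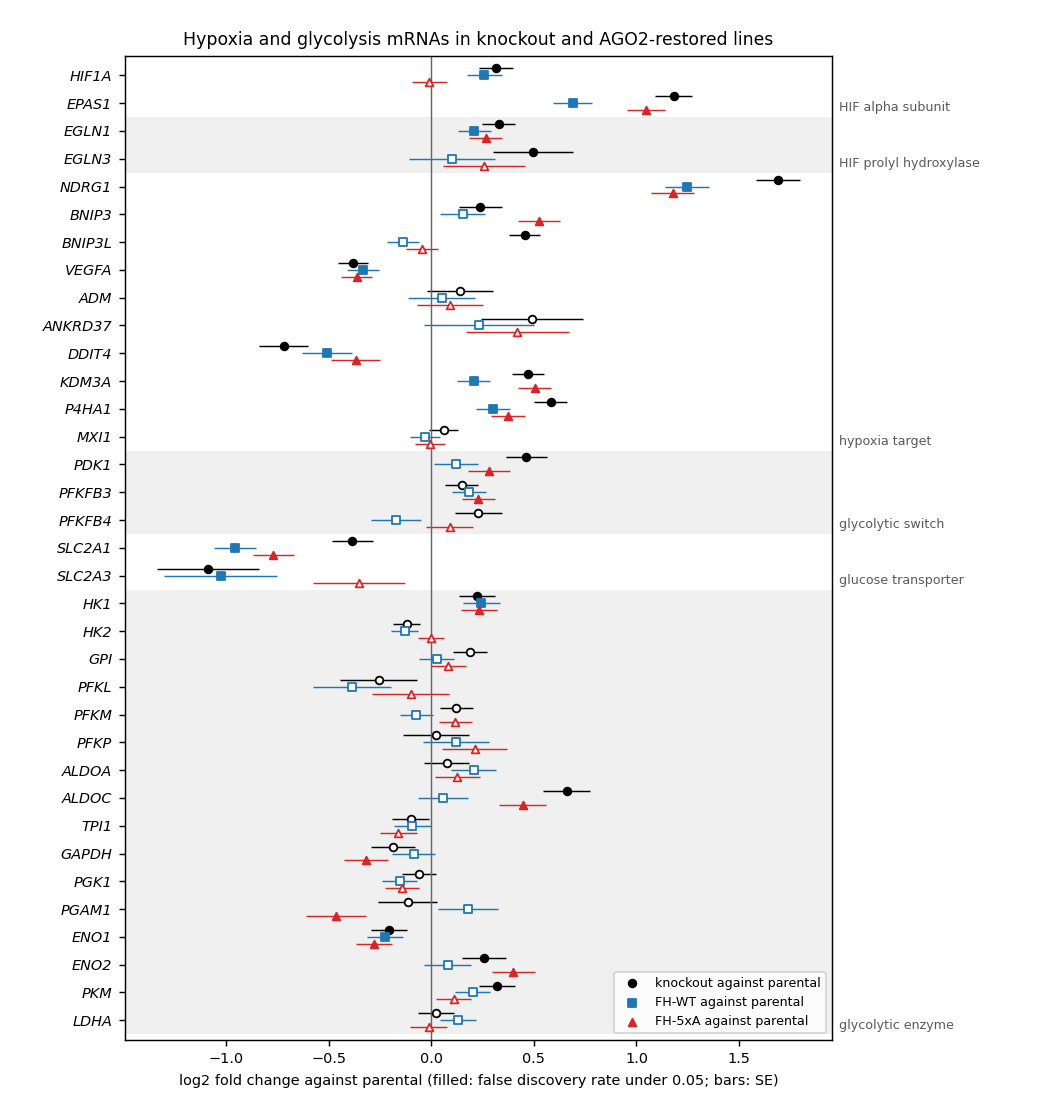
Log2 fold change of each member in knockout (black circles), FH-WT (blue squares) and FH-5xA cells (red triangles) against parental cells, from the authors' deposited tables; bars are derived standard errors, filled marks have a false discovery rate under 0.05, and shaded bands are the roles named at the right. NDRG1 and EPAS1 lie farthest to the right in all 3 lines, SLC2A1 and DDIT4 lie left of 0 in all 3, and most glycolytic enzymes at the bottom lie near 0.

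Both HIF alpha subunit mRNAs rose in the knockout, and the rise of EPAS1 was the larger. HIF1A (ENSG00000100644, chromosome 14, 61695513 to 61748259, GRCh38) encodes HIF-1 alpha, the subunit tied most closely to glycolytic genes. Its fitted level was 306 CPM in parental cells, 381 in the knockout, 367 with FH-WT and 305 with FH-5xA. Parental and FH-5xA cells thus had nearly the same HIF1A level, and knockout and FH-WT cells lay above them. The rise from parental to knockout cells was 0.32 ± 0.08 in the authors' deposited table (false discovery rate 0.000825). FH-WT was not called different from the knockout in HIF1A (-0.06 ± 0.09; 95% interval -0.22 to 0.11), while FH-5xA was lower than knockout by -0.32 ± 0.08 in the authors' deposited tables (false discovery rates 0.752 and 0.00315).

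EPAS1 (ENSG00000116016, chromosome 2, 46293667 to 46386703) encodes HIF-2 alpha, the subunit with the narrower set of cell types. Its fitted level was 21.3 CPM in parental cells, 48.3 in the knockout, 34.3 with FH-WT and 44.0 with FH-5xA. EPAS1 stayed above the parental level in all 3 engineered lines, least so in FH-WT. The authors' deposited tables gave EPAS1 a rise of 1.18 ± 0.09 in knockout against parental cells, a 2.27-fold difference (false discovery rate 4.28e-37), and a fall of -0.49 ± 0.09 in FH-WT against knockout (5.85e-06). FH-5xA against knockout was -0.14 ± 0.09 and not called in the authors' deposited table. Per kilobase of exon, EPAS1 made up 4.67% of the summed level of both subunits in parental cells, 8.21% in the knockout, 6.19% with FH-WT and 9.25% with FH-5xA, so HIF1A remained the main alpha subunit mRNA throughout.

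The prolyl hydroxylases, themselves HIF targets that restrain HIF, rose with the knockout. EGLN1, which encodes PHD2, the main oxygen sensor of the family, was at 79.5 CPM in parental cells, 99.7 in the knockout, 91.9 with FH-WT and 95.5 with FH-5xA. The rise in the knockout was 0.33 ± 0.08 in the authors' deposited table, and neither AGO2 form lowered it by a called amount. EGLN3, which encodes PHD3, was a low mRNA at 3.54 CPM in parental and 5.00 in knockout cells, and rose by 0.50 ± 0.19 in the authors' deposited table (false discovery rate 0.0272). That call was lost with the F distribution or a threshold of 0.01.

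NDRG1 made the largest change of any member. Its product is a stress protein that hypoxia and iron depletion raise. The fitted level was 38.9 CPM in parental cells, 125 in the knockout, 92.3 with FH-WT and 87.9 with FH-5xA, so parental cells were the lowest and knockout cells the highest. NDRG1 rose by 1.69 ± 0.11 in knockout against parental cells in the authors' deposited table, a 3.23-fold difference. Against the knockout it fell by 0.44 ± 0.10 with the wild-type and 0.51 ± 0.10 with the mutant protein in the authors' deposited tables. FH-5xA and FH-WT did not differ by a called amount, with a derived difference of -0.07 and a 95% interval from -0.27 to 0.13.

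BNIP3 and BNIP3L are paralogous genes for receptors that direct mitochondria to autophagy. BNIP3L, also known as NIX, was at 67.0 CPM in parental cells, 91.9 in the knockout, 61.0 with FH-WT and 65.0 with FH-5xA. Knockout cells stood above the other 3 lines. BNIP3L rose by 0.46 ± 0.08 in the knockout and fell again by 0.59 ± 0.08 with the wild-type and 0.50 ± 0.08 with the mutant protein in the authors' deposited tables. Neither reconstituted line differed from parental cells by a called amount in the authors' deposited tables (FH-WT -0.14, 95% interval -0.29 to 0.02; FH-5xA -0.05, 95% interval -0.20 to 0.10).

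BNIP3 (ENSG00000176171, chromosome 10, 131966455 to 131982013), whose promoter holds 6 cores, was at 17.7 CPM in parental cells, 20.9 in the knockout, 19.7 with FH-WT and 25.5 with FH-5xA. FH-5xA was the highest of the 4 lines. BNIP3 rose by 0.24 ± 0.10 in the knockout and by a further 0.28 ± 0.10 in FH-5xA against knockout in the authors' deposited tables, with false discovery rates of 0.0478 and 0.0479. Both calls sat at the threshold and were lost with the F distribution. FH-5xA against parental gave 0.52 ± 0.10 for BNIP3 in the authors' deposited table (false discovery rate 3.03e-06). Its share of the summed BNIP3 and BNIP3L level per kilobase was 15.6% in knockout and 24.1% in FH-5xA cells.

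KDM3A and P4HA1 rose in the knockout and fell with FH-WT. KDM3A (ENSG00000115548, chromosome 2, 86440647 to 86492716) encodes a histone H3 lysine 9 demethylase that HIF-1 raises, and P4HA1 encodes the catalytic subunit of collagen prolyl hydroxylase. KDM3A was at 46.5 CPM in parental cells, 64.5 in the knockout, 53.6 with FH-WT and 65.9 with FH-5xA, so FH-5xA stayed at the knockout level. In knockout against parental cells KDM3A rose by 0.47 ± 0.08, and it fell by 0.27 ± 0.08 with FH-WT but was at 0.03 ± 0.08 with FH-5xA in the authors' deposited tables against knockout. P4HA1 was at 51.5 CPM in parental cells, 77.0 in the knockout, 63.3 with FH-WT and 66.7 with FH-5xA. The authors' deposited tables gave P4HA1 a rise of 0.58 ± 0.08 in knockout against parental cells and a fall of 0.28 ± 0.08 with FH-WT, and -0.21 ± 0.08, not called, with FH-5xA.

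VEGFA and DDIT4, among the best known HIF targets, went the other way. VEGFA encodes the main growth factor for blood vessels and was at 74.9 CPM in parental cells, 57.5 in the knockout, 59.5 with FH-WT and 58.2 with FH-5xA. All 3 engineered lines lay below parental cells, by -0.38 ± 0.08, -0.33 ± 0.08 and -0.36 ± 0.08 in the authors' deposited tables. Neither AGO2 form changed VEGFA from the knockout level by a called amount in the authors' deposited tables (FH-WT 95% interval -0.11 to 0.20; FH-5xA -0.13 to 0.17). DDIT4, also known as REDD1, encodes an inhibitor of mTORC1 that several stresses raise. DDIT4 was at 65.2 CPM in parental cells, 39.6 in the knockout, 45.9 with FH-WT and 50.5 with FH-5xA. It fell by 0.72 ± 0.12 in the knockout and rose by 0.35 ± 0.12 in FH-5xA against knockout in the authors' deposited tables (false discovery rates 2.81e-08 and 0.0376). The second of these calls was lost with the F distribution.

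The remaining HIF targets were called in no comparison. ADM, the gene for the vasodilator peptide adrenomedullin, was at 23.5 to 25.9 CPM over the groups. MXI1, which encodes an antagonist of MYC, was at 59.9 to 63.9 CPM, with 0.06 ± 0.07 in knockout against parental cells in the authors' deposited table (95% interval -0.08 to 0.20). ANKRD37 was low, at 1.85 CPM in parental and 2.59 in knockout cells, and its 95% interval of 0.0036 to 0.98 in the authors' deposited table runs from near 0 to a large rise. UFSP2, a gene on the opposite strand, overlaps 909 exonic bases of ANKRD37, and the sources used here do not say whether counting used strand.

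Of the 3 regulators of flux, PDK1 rose in the knockout. PDK1 encodes a kinase that shuts pyruvate dehydrogenase and so keeps pyruvate out of mitochondria. It was at 15.0 CPM in parental cells, 20.6 in the knockout, 16.3 with FH-WT and 18.2 with FH-5xA. The rise was 0.46 ± 0.10 in the knockout and the fall with FH-WT 0.34 ± 0.10 in the authors' deposited tables. PFKFB4 and PFKFB3 encode enzymes that set fructose 2,6-bisphosphate, the activator of phosphofructokinase. PFKFB4 fell by 0.40 ± 0.12 in FH-WT against knockout in the authors' deposited table after 0.23 ± 0.11, not called, in the knockout. PFKFB3 was higher than parental in FH-5xA by 0.23 ± 0.08 in the authors' deposited table, with FH-WT at 0.18 ± 0.08 and not called (false discovery rates 0.0111 and 0.0663).

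Both glucose transporter genes among the members, which are HIF targets, had lower mRNA in the knockout than in parental cells. SLC2A1, which encodes GLUT1, the main transporter of most tumour lines, was at 222 CPM in parental cells, 170.3 in the knockout, 115 with FH-WT and 130.4 with FH-5xA. Each engineered line lay below parental cells, and both reconstituted lines lay below the knockout. SLC2A1 was lower than parental by -0.38 ± 0.10 in the knockout, -0.96 ± 0.10 with FH-WT and -0.77 ± 0.10 with FH-5xA in the authors' deposited tables. Against knockout it fell by 0.57 ± 0.10 with FH-WT and 0.38 ± 0.10 with FH-5xA in the authors' deposited tables. It was the only member that fell in the knockout and fell again in both reconstituted lines. SLC2A3, which encodes GLUT3, was the lowest member at 1.38 CPM in parental cells, 0.648 in the knockout, 0.676 with FH-WT and 1.08 with FH-5xA. It was at -1.09 ± 0.25 in knockout and -1.03 ± 0.28 in FH-WT against parental cells in the authors' deposited tables, both called. FH-5xA against parental was -0.35 ± 0.23 for SLC2A3 and not called in the authors' deposited table. A filter at 2 log2 CPM removes this gene.

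The glycolytic enzymes as a group moved little in the knockout. The 16 enzymes together made up 1.16% of fitted expression in parental and in knockout cells, 1.11% in FH-WT and 1.09% in FH-5xA cells. Their summed level was 11747 CPM in parental cells, 11387 in the knockout, 11541 with FH-WT and 10673 with FH-5xA. The sum thus put FH-WT above the knockout, and the share put it below. For FH-5xA against parental 3 enzymes were higher and 3 lower in the authors' deposited table (37.5%, background 43.8%). The median log2 fold change of the 16 enzymes in knockout against parental cells was 0.02 in the authors' deposited table. HK2, GPI, PFKL, PFKM, PFKP, ALDOA, TPI1, PGK1 and LDHA, which cover steps from glucose phosphorylation to lactate, were called in no comparison. LDHA, the muscle-type lactate dehydrogenase and a textbook HIF-1 target, was at 961 CPM in parental cells, 977 in the knockout, 1052 with FH-WT and 952 with FH-5xA. Its change in the knockout was 0.02 ± 0.09, with a 95% interval from -0.15 to 0.20, in the authors' deposited table. PGK1, the first ATP-forming enzyme of the pathway, was at 510 CPM in parental and 489 in knockout cells, with -0.06 ± 0.08 (95% interval -0.22 to 0.10) in the authors' deposited table. The promoters of LDHA and PGK1 hold 6 and 4 cores. HK2, the inducible hexokinase, was at -0.12 ± 0.06 in knockout against parental cells and not called in the authors' deposited table. PFKL, PFKM and PFKP encode the liver, muscle and platelet forms of phosphofructokinase, and their 95% intervals in the authors' deposited table ran from -0.63 to 0.34 in all. GPI, which converts glucose 6-phosphate to fructose 6-phosphate, was at 0.19 ± 0.08 with a false discovery rate of 0.0530 in the authors' deposited table, just outside the threshold, and was called when protein-coding genes alone were tested. ALDOA, the main aldolase, was at 0.08 ± 0.11 and TPI1, triosephosphate isomerase, at -0.10 ± 0.09 in the authors' deposited table for the knockout, neither called.

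The 4 enzymes that rose in the knockout were ALDOC, ENO2, HK1 and PKM, and the first pair are the minor forms of their steps in these cells. ALDOC (ENSG00000109107, chromosome 17, 28573115 to 28577264), the brain-type aldolase, was at 19.5 CPM in parental cells, 30.8 in the knockout, 20.3 with FH-WT and 26.5 with FH-5xA. It rose by 0.66 ± 0.12 in the knockout and fell by 0.60 ± 0.12 with FH-WT in the authors' deposited tables, which left FH-WT at the parental level (0.06 ± 0.12). FH-5xA kept ALDOC above parental by 0.45 ± 0.12 in the authors' deposited table. Of the summed level of ALDOA and ALDOC per kilobase, ALDOC was 3.66% in parental cells, 5.39% in the knockout, 3.31% with FH-WT and 4.52% with FH-5xA. ENO2, the neuronal enolase, rose by 0.26 ± 0.11 and ENO1, the main enolase, fell by 0.21 ± 0.09 in the authors' deposited table for the knockout. ENO2 nevertheless stayed under 1% of the summed enolase level per kilobase, at 0.549% in parental and 0.876% in FH-5xA cells. HK1, the housekeeping hexokinase, rose by 0.22 ± 0.09 and PKM, pyruvate kinase of muscle and tumours, by 0.32 ± 0.09 in the authors' deposited table for the knockout. The calls for ENO1, ENO2 and HK1 were lost with the F distribution or a threshold of 0.01. HK1 took 42.5% of the summed hexokinase level per kilobase in parental and 48.3% in knockout cells, with HK2 as the rest.

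Per kilobase of exon, the parental levels of the enzymes covered a wide range within the pathway. GAPDH stood at 1322 CPM per kilobase and ENO1 at 477, ahead of PKM at 194, ALDOA at 175, LDHA at 155 and TPI1 at 153. PFKP, the main phosphofructokinase mRNA, was at 58.3, HK2 at 15.5, HK1 at 11.4, ALDOC at 6.66 and ENO2 at 2.63 CPM per kilobase. GAPDH and ENO1 were the highest enzymes and ENO2 the lowest in all 4 lines. GAPDH, often used as a reference gene, was at -0.19 ± 0.11 in knockout against parental cells and not called, and FH-5xA was lower than parental by -0.32 ± 0.11 in the authors' deposited tables (false discovery rate 0.00868). The tables also list 19 processed copies of 9 members, among them 5 of GAPDH and 4 of LDHA, and reads could be split between a gene and its copies. One LDHA copy, LDHAP4, had a derived FH-5xA minus FH-WT difference of 0.30 (Benjamini-Hochberg adjusted p = 0.0164), opposite in sign to -0.14 ± 0.09 for LDHA.

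**Figure D3:**
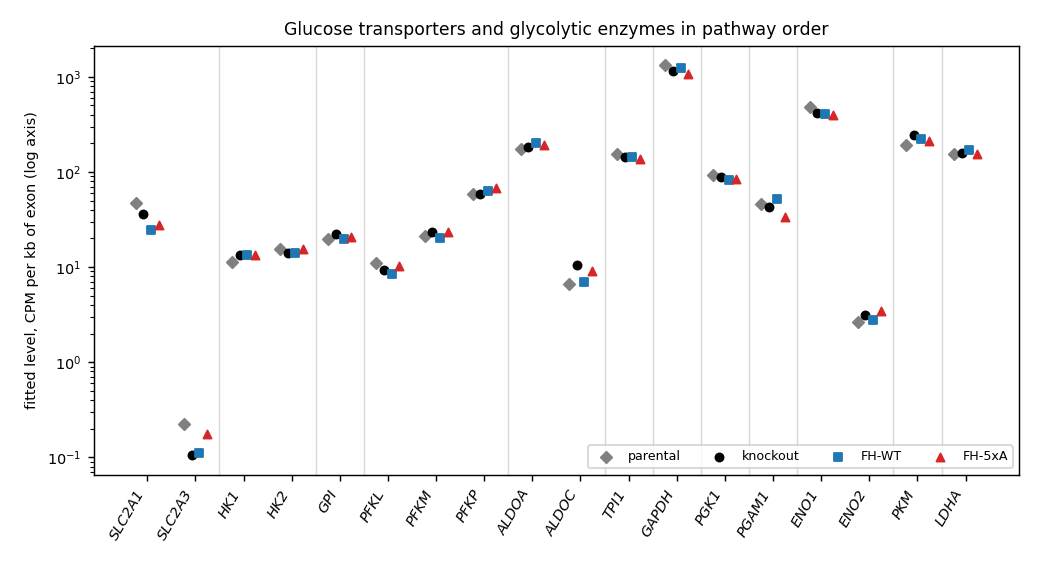
Fitted level of each glucose transporter and glycolytic enzyme, in CPM per kilobase of exon on a log axis, in the order of the pathway from uptake at the left to lactate at the right; grey diamonds are parental, black circles knockout, blue squares FH-WT and red triangles FH-5xA cells, each 1 fitted group value without an error bar. The 4 marks of an enzyme mostly overlap, whereas SLC2A1 and SLC2A3 are spread and ALDOC, ENO2 and PGAM1 separate the lines.

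Cells with FH-5xA and FH-WT differed in 6 members, 4 of them higher and 2 lower with the mutant. This derived difference had a background of 4.11% of 15072 genes called (1.98% higher, 2.13% lower), against 17.1% of the members. EPAS1 was higher with FH-5xA by 0.36 ± 0.09, KDM3A by 0.30 ± 0.08, BNIP3 by 0.37 ± 0.11 and ALDOC by 0.39 ± 0.12 (Benjamini-Hochberg adjusted p = 0.00853, 0.0154, 0.0228 and 0.0372, chi-square test). For EPAS1, KDM3A and ALDOC, FH-WT lay below the knockout while FH-5xA was not called different from it, and for BNIP3 FH-5xA lay above every other line. HIF1A was lower with FH-5xA by -0.27 ± 0.09 (adjusted p = 0.0439). The subunits therefore differed in opposite directions between the AGO2 forms. These adjusted p-values rest on the chi-square reference of the deposited scores: with the F distribution 0 of 15072 genes and 0 members were called, with 8 members at an unadjusted p under 0.05 and a smallest adjusted p of 0.358. At a threshold of 0.01 EPAS1 and PGAM1 were left.

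PGAM1 (ENSG00000171314, chromosome 10, 97426160 to 97433441), the phosphoglycerate mutase of most tissues, had the largest called difference between the AGO2 forms. Its fitted level was 118 CPM in parental cells, 109 in the knockout, 133 with FH-WT and 85.4 with FH-5xA. FH-WT was the highest and FH-5xA the lowest of the lines, with parental and knockout cells between them. The derived difference was -0.64 ± 0.15 (Benjamini-Hochberg adjusted p = 0.00226), a 1.56-fold lower level with the mutant. Against knockout neither form was called for PGAM1 in the authors' deposited tables, at 0.29 ± 0.15 with FH-WT and -0.35 ± 0.15 with FH-5xA, and FH-5xA was below parental by -0.46 ± 0.15. The pseudogene copy PGAM1P8 had a derived difference of -0.04.

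Other members differed less between the AGO2 forms or were less well measured. ENO2 was at 0.32 ± 0.11 with an adjusted p of 0.0723 and GAPDH at -0.23 ± 0.11 with 0.199 by the same chi-square test with Benjamini-Hochberg adjustment. SLC2A3 had the largest positive value, 0.67 ± 0.30, but a 95% interval from 0.08 to 1.27 and an adjusted p of 0.186. Several members were measured closely enough to bound a difference: the 95% interval was -0.18 to 0.12 for VEGFA, -0.19 to 0.16 for HK1, -0.12 to 0.17 for MXI1 and -0.15 to 0.17 for PGK1. The median derived difference was 0.08 for the members and 0.01 for all genes.

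**Figure D4:**
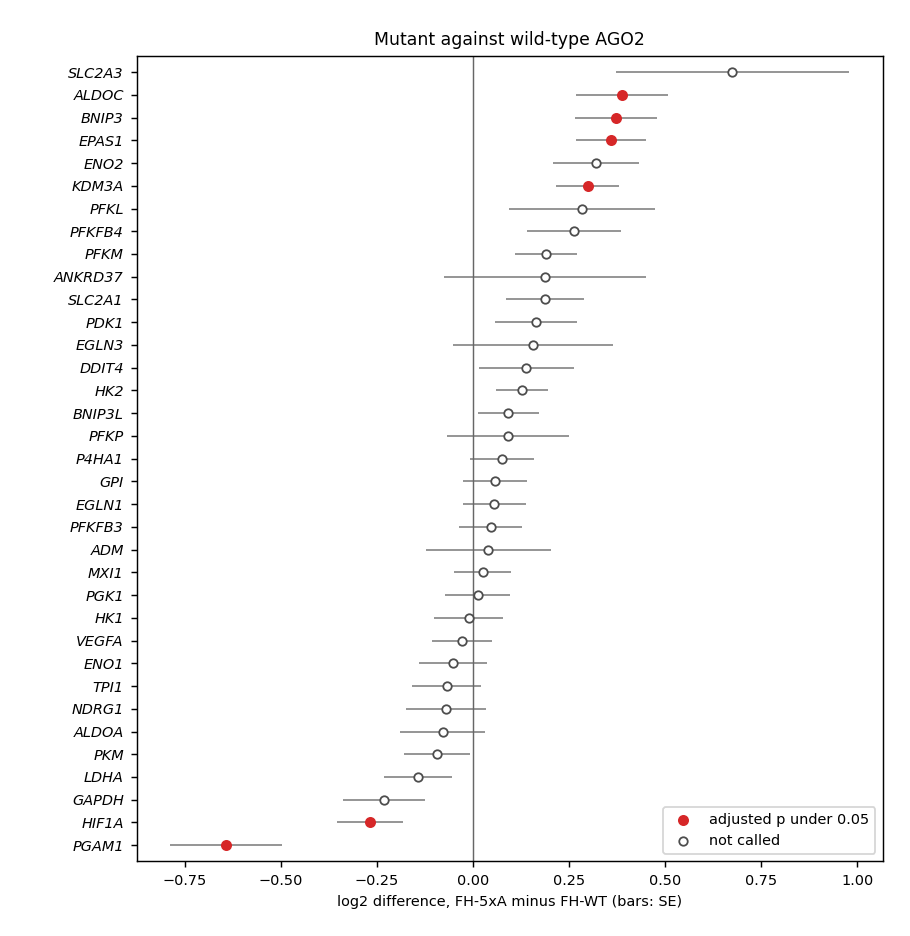
Derived log2 difference, FH-5xA minus FH-WT, for the 35 members in order of size; bars are standard errors and red filled circles have a Benjamini-Hochberg adjusted p under 0.05 over all genes by the chi-square test. EPAS1, KDM3A, BNIP3 and ALDOC are the filled marks right of 0 and HIF1A and PGAM1 those left of 0, with PGAM1 at -0.64.

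Other genes of these pathways were counted in the same way. The 7 lists were chosen with earlier results of these data known, so they are not a separate test of what the members showed. Of 107 genes on 7 lists, 83 were in the tables, and for the knockout against parental cells the authors' deposited table had 32 higher and 14 lower, where 23.2% of all genes were called higher and 21.2% lower. Among 21 further HIF targets 14 rose and 2 fell, with a median of 0.32 in the authors' deposited table, where the median of all genes was -0.01. CA12, a relative of the absent CA9, rose by 2.26 ± 0.12 and BHLHE40, a transcriptional repressor, by 1.72 ± 0.12, and STC2, a secreted glycoprotein, fell by 0.79 ± 0.10 in the authors' deposited table. Of 15 regulators of HIF 4 rose and 3 fell in the authors' deposited table, with a median of -0.003, close to that of all genes. The 4 that rose are named here and the 3 that fell are not. ARNT, the partner of both alpha subunits, was at 0.61 ± 0.09 in the authors' deposited table. CITED2, which competes with HIF for its coactivators, was at 0.58 ± 0.14. The coactivator genes EP300 and CREBBP were at 0.72 ± 0.14 and 0.64 ± 0.17, both called, in the authors' deposited table.

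Further glycolysis and lactate genes had 5 higher and 1 lower of 14 in the authors' deposited table for the knockout. Their median was 0.02, against -0.01 for all genes. The background for this and the following lists was 44.4% of all genes called, 23.2% higher and 21.2% lower. The 5 glycolysis and lactate genes that rose included TIGAR, a fructose bisphosphatase that p53 raises, at 0.79 ± 0.08 in the authors' deposited table. They also included the glucose transporter gene SLC2A12 at 1.28 ± 0.14 and BPGM, a relative of PGAM1, at 0.55 ± 0.09. The 1 that fell is not named here. At the entry of pyruvate into mitochondria 3 of 12 rose and 2 fell, with PDK4, another kinase of the PDK1 family, at 1.72 ± 0.14 in the authors' deposited table. The pentose phosphate genes had 0 of 8 higher and 2 lower, PGD at -0.37 ± 0.08 and TALDO1 at -0.37 ± 0.11 in the authors' deposited table. Among 10 genes of the MYC and MondoA network 6 rose and 3 fell, with MYC at -0.60 ± 0.12, the MYC antagonist MXD1 at 1.22 ± 0.16 and the glucose-responsive ARRDC4 at -1.51 ± 0.15 in the authors' deposited table. Of 3 gluconeogenesis genes PCK2, a target of the amino acid stress response, fell by 1.53 ± 0.10 in the authors' deposited table.

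With AGO2 put back, the further HIF targets had 6 lower and 1 higher of 21 in FH-WT and 5 lower and 0 higher in FH-5xA against knockout in the authors' deposited tables. Over all genes, 5.85% were lower and 4.21% higher with FH-WT, and 6.24% lower and 5.04% higher with FH-5xA, in the authors' deposited tables. Between FH-5xA and FH-WT, 4 of the 83 genes were called by the derived test, a share near the background of 4.11%. BHLHE40 was higher with the mutant by 0.56 ± 0.12 and INSIG2, a HIF target that restrains cholesterol synthesis, by 0.46 ± 0.14 (Benjamini-Hochberg adjusted p = 0.000772 and 0.0379, chi-square test). MLXIPL, the gene for the glucose sensor ChREBP, was higher by 0.51 ± 0.13 and G6PC3, a glucose 6-phosphatase gene, lower by -0.39 ± 0.12. None of the 4 calls was kept with the F distribution.

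MicroRNA seed matches were looked up because AGO2 is loaded with microRNAs. A seed is bases 2 to 8 of a microRNA, and its match is the complementary run of 7 bases in the 3′ untranslated region of the principal transcript (GENCODE 29, GRCh38). Of the 9 families read, the miR-17 family (miR-17, miR-20a, miR-93 and miR-106b) had the largest share of members with a match, 14 of 35 members (40%) against 2711 of 11657 measured genes (23.3%). Its mature sequences are printed from RefSeq with the shared seed in capitals.
miR-17-5p: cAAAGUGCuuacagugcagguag
miR-20a-5p: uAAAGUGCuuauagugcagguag
miR-93-5p: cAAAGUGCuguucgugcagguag
miR-106b-5p: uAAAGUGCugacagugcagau

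The 14 members with that match were HIF1A, EPAS1, EGLN1, EGLN3, BNIP3, BNIP3L, VEGFA, MXI1, PDK1, PFKFB3, SLC2A3, PFKP, ENO2 and LDHA, which takes in both HIF subunits and both hydroxylases. In the sites of HIF1A, EPAS1 and EGLN1, printed here for both subunits and the main hydroxylase, the 7 matching bases are in capitals and the coordinates are those of the 7 bases.
HIF1A, chr14:61748043-61748049, plus strand: gtttgattttatGCACTTTgtcg
EPAS1, chr2:46386160-46386166, plus strand: agtgttcccagaGCACTTTgcaa
EGLN1, chr1:231365843-231365849, minus strand: ataagaaaaggaGCACTTTaatt

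Members with the miR-17 family match rose in the knockout in 8 of 14 cases and fell in 2, and members without it rose in 6 of 21 and fell in 3, in the authors' deposited table. Among all measured genes 35.4% of those with the match and 23.3% of those without it were called higher in that deposited table of the authors. After return of wild-type AGO2, 3 of 14 with the match and 6 of 21 without it fell in FH-WT against knockout in the authors' deposited table (21.4% and 28.6%). Over all measured genes the falls were 11.7% with and 5.68% without the match in the authors' deposited table, the opposite order. HIF1A and EPAS1 both carry the match and moved in opposite directions between FH-5xA and FH-WT. Other families were read in the same way. A let-7 match was found in ALDOC alone (2.86%, against 10.3% of genes). No member had a match to miR-210, a microRNA that hypoxia raises (background 2.96%). The share of members was also below that of genes for miR-19 (11.4%, against 14.5%) and miR-200c (14.3%, against 18.1%). The same held for miR-29 (5.71%, against 15.4%) and miR-16 (17.1%, against 23.3%). Besides the miR-17 family, members were above genes for miR-21 (14.3%, against 8.98%) and miR-34, with 7 members including PGAM1 (20%, against 16.2%). MicroRNA levels were not analysed here, and a match is not evidence of binding.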

How the data were processed

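RNA was measured by stranded, ribosome-depleted total RNA sequencing in 12 HCT116 libraries, 3 in each of 4 groups. Per the submitters' processing notes, reads were processed on hg38/GRCh38 with edgeR 3.8.6, featureCounts 1.4.6, TopHat2 2.0.12 and Cufflinks 2.2.1. The sources used here do not give the annotation, expression filter, normalization factors or strand setting of counting. Per the file headers, the authors' deposited tables give a log2 fold change, mean expression in log2 CPM, a score (the likelihood ratio) with its p-value, and a false discovery rate for 15074 genes. Counts per library were not analysed here, so the deposited tests replaced the tests planned for counts, depth per library is unknown, and no library could be left out.

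The standard error of a fold change was its absolute size on the log2 scale over the root of the score, and 95% intervals follow from it. FH-5xA minus FH-WT was the difference of both comparisons with knockout. Its variance was solved from the 5 squared errors, and its chi-square p-values (1 degree of freedom) were adjusted by Benjamini-Hochberg over 15072 genes. Applied to FH-WT against knockout, this derivation called 1511 genes where the deposited table called 1516, with 1507 in both. Group levels were solved from mean expression and fold changes, and divided by GENCODE 29 exon length. The calculation was tested on simulated data. Alternatives were a threshold of 0.01, an F reference with 1 and 8 degrees of freedom, recentring outside chromosome 7 and the mitochondrial genome, totals without mitochondrial RNA, genes of at least 2 log2 CPM, protein-coding genes only, and other variances or routes for the difference. These settings were extended to the further pathway genes after seeing the data. The members, the 7 pathway lists and the tests were chosen with earlier results of these data known. All members called in a comparison were named, with up to 4 genes per list of smallest p in knockout against parental and up to 4 in FH-5xA minus FH-WT; not every one is printed, and some items are not reported here. Computation used Python 3.11.15, numpy 2.4.6, scipy 1.17.1 and pandas 2.3.3.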

Additional observations from a re-analysis of the deposited data

Results flagged for a closer look

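In 6 members the FH-5xA line differed from the FH-WT line, by a test of the difference itself, and each protein was measured in 1 line. The derived log2 difference, FH-5xA minus FH-WT, was 0.36 for EPAS1, 0.30 for KDM3A, 0.37 for BNIP3 and 0.39 for ALDOC. It was -0.27 for HIF1A and -0.64 for PGAM1. All 6 passed the chi-square test with Benjamini-Hochberg adjustment over all genes, and 0 of 15072 genes passed with the F reference, at a smallest adjusted p of 0.358.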

How the results depend on the processing

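The F reference keeps the same scores and changes only their distribution, with degrees of freedom that allow for no strength from other genes. This F reference, with 1 and 8 degrees of freedom, moved counts most. With it, members called fell from 9 to 1 in FH-WT against knockout, from 6 to 1 in FH-5xA against knockout, from 12 to 7 in FH-WT against parental and from 6 to 0 in FH-5xA minus FH-WT. Further pathway genes called went from 12 to 2, from 14 to 2 and from 4 to 0 in FH-WT against knockout, FH-5xA against knockout and FH-5xA minus FH-WT. A threshold of 0.01 left 5 members in FH-WT against knockout and 2 in the difference, and 9 further pathway genes in FH-5xA against knockout and 2 in the difference. In the other settings run, counts of calls stayed within 1.5 times. Of 1944 recalculated gene values 1853 kept direction and side of the threshold, 70 lost and 7 gained a call, and 14 changed sign. The sign changes were in uncalled values near 0. Without mitochondrial RNA they became 0.0062 for MAX in knockout against parental, 0.030 for HK2 and 0.019 for ENO1 in FH-WT against knockout, and 0.0049 for PFKM in FH-5xA against knockout. MXI1 became 0.014 in FH-WT and 0.010 in FH-5xA against parental, and in the latter HIF1A became 0.0071, HK2 0.015 and LDHA 0.0036. In the difference MXI1 became -0.0039 and PGK1 -0.017. Recentring outside chromosome 7 and the mitochondrial genome gave 0.021 for MAX in knockout against parental and, in FH-5xA against parental, 0.00068 for MXI1 and 0.0054 for HK2. Their cause is the shift itself, of at most 0.045 (log2). No paired analysis was possible because the tables hold no values per library, and leaving out each replicate was not run for the same reason.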
